A study of Urocitellus parryii with 24 samples.

Results

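Torpor (T) was compared with arousal episodes (A) in the liver of the Arctic ground squirrel (AGS, Urocitellus parryii) on 16 of the 24 arrays of the series. The members were chosen by the sample labels and the filter set: 9 animals in early or late torpor against 7 animals in early or late arousal whose RNA was hybridized to filters of the set that the names of the scanner files call A1. The array is a nylon membrane with 9600 spotted AGS cDNA probes, and each membrane carried the radioactively labelled RNA of 1 animal. Of the T animals, 4 were early in a torpor bout and 5 were late in one. Of the A animals, 4 were sampled early after rewarming and 3 later in the same episode. All 16 were hibernating animals kept without food through hibernation, and their sex and age are not given in the labels. The remaining 8 arrays, 1 of late arousal on an A2 filter and 7 of summer active animals, did not enter the comparison. Per the methods, torpid animals were decapitated without anesthesia and aroused animals under isoflurane, so the anesthetic and the state cannot be told apart.

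A hibernating ground squirrel spends most of winter in torpor, a state in which metabolism falls to a small part of its normal rate and body temperature comes close to that of the surroundings. Transcription and translation nearly stop in the cold body, and fatty acids and ketone bodies replace glucose as the main fuel. At intervals the animal rewarms on its own to the body temperature of an active mammal, stays warm for a short time and cools again, and synthesis of RNA and protein resumes in these arousal episodes. The comparison of T with A asks which liver transcripts differ between the cold and the warm phase of the same season.

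The scanner files list probes by number. Gene symbols were available for 1329 probes, those of the genes that the study had listed as differing among T, A and summer animals, and the other 8271 probes were tested without a name. Since the study chose these 1329 genes on the same arrays, the number of them that differed is not independent evidence. The list holds 1 probe per gene, so another probe of the same gene can stand among those without a symbol. A cDNA probe can also bind transcripts of close relatives, which concerns the cytochrome P450, glutathione S-transferase, ribosomal protein, HSPA8 and HSP90 probes below. Values are log2 levels, in which 0 is the median probe of the array, and all differences are T minus A on that scale.

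The liver label was borne out by the 8 hepatocyte markers: ALB, which encodes serum albumin, had a mean log2 level of 8.82 in T and 8.46 in A, and the dimmest of the 8, the fatty acid binding protein gene FABP1, had 3.97 and 3.52. By the summed linear ratio over each marker list, the 9 blood and immune cell genes ranged from 16.5 to 43.6 over T (median 23.2) and from 13.3 to 19.0 over A (median 14.2). None of these 9 passed the test, and the largest differences were 1.29 for the hemoglobin gene HBA2 (adjusted p = 0.129) and 0.99 for FCGR3A, an antibody receptor of immune cells (adjusted p = 0.0639). The sums overlapped between T and A for hepatocyte, muscle, fibroblast, endothelial and neural markers too. The 9 muscle, 7 fibroblast and stellate, 4 endothelial and 5 neural genes all missed the threshold, and their mean levels were below the array median except for VSNL1 (7.68 and 7.08), CD93 (2.85 and 2.40), MYL4 (0.55 and 0.44), LUM in T (0.26) and OGN in A (0.08). No marker was at 0. Fewer cells of a type and less RNA per cell cannot be told apart in whole tissue.

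The arrays themselves differed with the state. The median signal of an array was 72.8 at the lowest, 79.5 at the median and 114 at the highest over T, and 84.3, 108 and 132 over A. The mean difference was -20.98 intensity units (exact permutation test over 11440 groupings, two-sided, p = 0.0138), so A arrays were brighter before scaling. The interquartile range of the log2 levels ran the other way, from 2.14 to 2.32 over T and from 1.91 to 2.21 over A (difference 0.15, exact permutation p = 0.00288). Early arousal 04-84 and early arousal 04-43 had the narrowest ranges, 1.91 and 1.95, and late arousal 2000-22 had the widest of the A arrays. Correlations between arrays lay between 0.936 and 0.965 within a state and between 0.931 and 0.961 across states, so none was a copy of another.

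**Figure D1:**
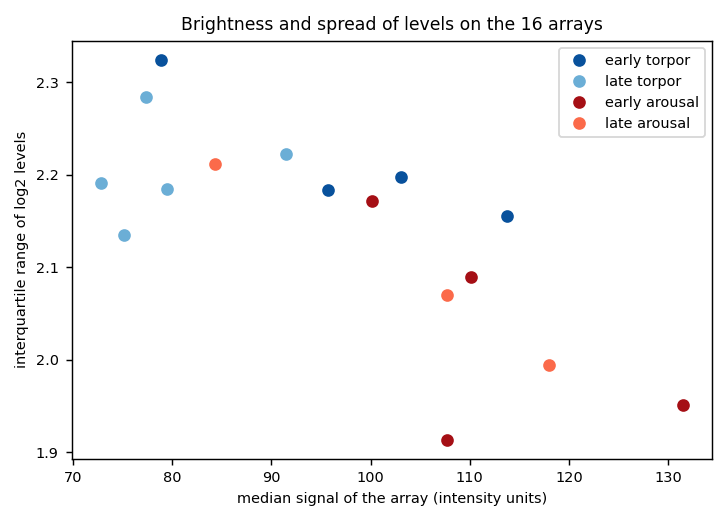
Each point is 1 of the 16 arrays, with its median signal in intensity units on the x axis and the interquartile range of its log2 levels on the y axis, coloured by stage. Arousal arrays lie to the right and low, with 5 of the 7 below the lowest torpor array (2.14), and late arousal 2000-22 (84.3 and 2.21) lies among the torpor arrays.

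Of 9598 probes tested, 124 (1.29%) differed between T and A at an adjusted p under 0.05 in limma. There were 111 higher in T (1.16%) and 13 lower (0.135%). Of the 1329 genes with a symbol, 77 passed (5.79%), 66 higher (4.97%) and 11 lower (0.828%). The median difference was 0.05 over all probes and 0.17 over the genes with a symbol, from which all gene lists below are drawn, and it was -0.01 and 0.10 under quantile normalization. The size of the called differences ran from 0.56 to 1.45. In 32 probes (0.333%) the T and A arrays did not overlap, 25 with T above A (0.26%) and 7 with T below (0.0729%), and 24 of these (0.25%) were among the 124.

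The preponderance of rises followed the brightness of the probes. When probes were sorted by mean level into 10 bins of equal size, the median difference was -0.06 in bin 2, 0.13 in bin 8, 0.25 in bin 9 and 0.43 in bin 10, the brightest, where 91.5% of probes were higher in T. The brightest bin held 62 of the 111 rises and 2 of the 13 falls, and bin 9 held 23 rises and no fall. Quantile normalization, which gives all arrays the same distribution, brought the medians of all bins to between -0.04 and 0.05. Under it 18 probes were called (0.188%), 9 higher and 9 lower in T (0.0938% each), and under cyclic loess 16 (0.167%), 7 higher (0.0729%) and 9 lower (0.0938%). Scaling the arrays to equal spread, an alternative chosen after the data were seen, left 26 (0.271%), 21 higher (0.219%) and 5 lower (0.0521%). All 111 rises and all 13 falls kept their sign under quantile and loess normalization, and 15, 13 and 25 of the 124 were called again under the 3 alternatives. Whether bright transcripts truly stood higher in T relative to the median or the A membranes had a compressed range cannot be told apart here.

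**Figure D2:**
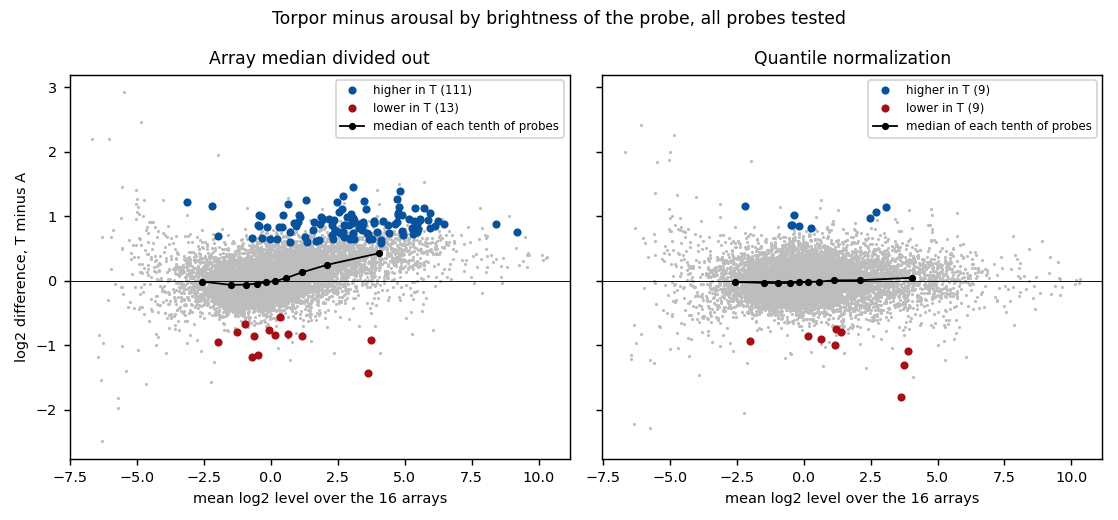
Each grey point is 1 probe, with its mean log2 level over the 16 arrays on the x axis and the log2 difference T minus A on the y axis; blue and red points are called probes and the black line joins the medians of the 10 bins. With the array median divided out (left) the line climbs to 0.43 and 111 of 124 calls are higher in T, and after quantile normalization (right) the line is flat and 9 of 18 are.

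The number of calls also rested on single arrays. It lay between 47 and 200 when each array was left out in turn. Without early arousal 04-84 it was 47, without early arousal 04-43 it was 55, and without late arousal 04-31 it was 200. Among the late torpor arrays it was 75 without 04-38, 67 without 04-06, 55 without 20-39 and 61 without 04-36. When both 04-84 and 04-43 were left out, an alternative chosen after the data were seen, 4 probes were called, CIRBP and 3 without a symbol, all 4 higher in T. Animals whose identifier begins with 04 (7 in T, 6 in A) gave 26 calls on their own, and with the identifier prefix as a block in the fit the number was 144. The others, 2 in T and 1 in A, allow no test.

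A set of 12 probes was called under the array median and under all 3 other normalizations. They are described here as the part of the comparison that did not turn on the scaling, and 8 of them had a symbol. CIRBP, PSENEN, SEC14L3 and FEM1B were higher in T, and TP53INP1, HSPA8, MTUS1 and G3BP1 were lower. SEC14L3, a lipid-binding protein of the SEC14 family, and FEM1B, a substrate receptor of ubiquitin ligases, lay outside the rule for named genes and were picked out after their values were seen, with differences of 0.84 each (adjusted p = 0.0114 and 0.0158).

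The cold-inducible RNA-binding protein gene CIRBP, whose product rises in mildly cooled mammalian cells and binds mRNA, had the smallest p of all probes. Its log2 level was 2.69 at the lowest, 3.03 at the median and 3.41 at the highest over the 9 T arrays, and 1.42, 1.85 and 2.14 over the 7 A arrays. Every T array lay above every A array. This 2.34-fold difference, 1.23 on the log2 scale, had a standard error of 0.14 and an adjusted p of 2.97e-04. Early and late torpor had the same mean within their spread, 2.97 ± 0.20 (SD, n = 4) and 3.03 ± 0.26 (SD, n = 5), as did early and late arousal, 1.73 ± 0.35 (SD, n = 4) and 1.84 ± 0.03 (SD, n = 3). It was called under all 20 alternatives, with differences of 0.94 to 1.38, and without each array in turn. The late arousal array on the A2 filter lay at 0.53, below all 7 A arrays of the A1 set, and the summer arrays on A1 filters lay at 0.79 and 0.52.

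**Figure D3:**
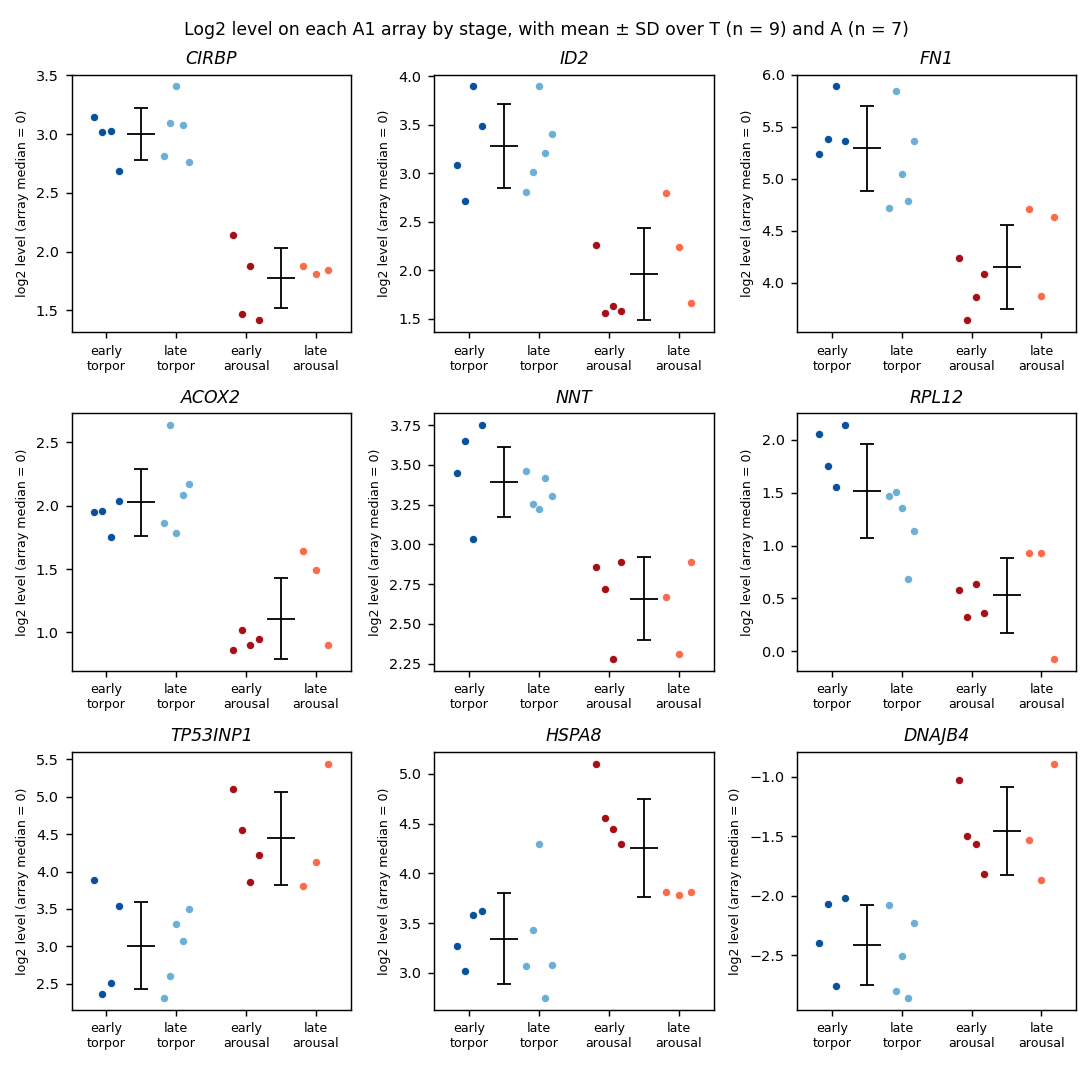
Each point is the log2 level of the named gene on 1 array, grouped by stage on the x axis, with black bars for the mean ± SD over the 9 T and the 7 A arrays. CIRBP, FN1, ACOX2, NNT and DNAJB4 show no overlap between T and A, while in ID2, RPL12, TP53INP1 and HSPA8 at least 1 array of one state reaches the range of the other.

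RNA-binding, splicing and helicase genes, CIRBP among them, went both ways. Of the 45 measured, 4 rose in T, CIRBP included, 1 fell and 40 did not pass the test. Rises made up 8.89% and the fall 2.22%, beside 4.97% and 0.828% of all genes with a symbol. Their median difference was 0.33 beside 0.17 over the genes with a symbol. Differences in the list ran from -1.56, which did not pass, to 1.23 for CIRBP. Under quantile normalization 1 was called in each direction, CIRBP and G3BP1, and the median was 0.16, beside 0.10 over the genes with a symbol. THRAP3, a protein of splicing and mRNA decay complexes, was between 2.36 and 3.13 in T (median 2.80) and between 1.49 and 2.47 in A (median 1.75). Only late arousal 04-31 reached the T range, and the difference was 0.95 (standard error 0.16, adjusted p = 0.0105). NONO, a paraspeckle protein, and the splicing regulator HNRNPA1 also rose, by 0.76 and 0.67 (adjusted p = 0.0215 and 0.0461). THRAP3, NONO and HNRNPA1 were not called under quantile normalization (adjusted p = 0.0742, 0.339 and 0.510).

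The RNA-binding gene that fell was G3BP1, which nucleates stress granules, the cytoplasmic bodies in which stalled mRNAs collect. It lay between -0.25 and 0.82 in T (median 0.30) and between 0.52 and 1.77 in A (median 1.03). Late torpor 04-06 was the sole T array above the lowest A array, and the difference was -0.83 (standard error 0.18, adjusted p = 0.0316). Called under 18 of 20 alternatives, G3BP1 held under all 4 normalizations, though in only 10 of the 16 fits that leave out 1 array. The RNA-binding protein gene TARDBP, which encodes TDP-43, had a mean of -1.99 ± 0.33 (SD, n = 9) in T and -1.23 ± 0.55 (SD, n = 7) in A, a difference of -0.76 that did not pass (adjusted p = 0.0760). FUBP1, which binds a regulatory element upstream of MYC, differed by -0.30 (adjusted p = 0.364). FUBP1 averaged 0.03 ± 0.20 (SD, n = 4) in early and -0.52 ± 0.20 (SD, n = 3) in late arousal, beside -0.67 and -0.38 in early and late torpor. These stages were not tested apart.

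Heat shock proteins and cochaperones keep proteins folded, and HSP70 and HSP90 work with partners that deliver or release their clients. Of the 23 measured, 2 fell in T, none rose and 21 did not pass, where 0.828% of genes with a symbol fell. The median difference was -0.23, and 15 of the 23 differences were negative. Under quantile and loess normalization 3 fell, with medians of -0.20 and -0.19, while under equal spread 1 fell and the median was -0.15.

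HSPA8, the constitutive HSP70 of the cytosol, was between 2.75 and 4.30 in T (median 3.27) and between 3.79 and 5.10 in A (median 4.29). The 4 early arousal arrays were the highest of the A arrays (mean 4.60 ± 0.35, SD), the 3 of late arousal lay close together at 3.79 to 3.81, and late torpor 04-38 reached 4.30. The difference was -0.91 (standard error 0.22, adjusted p = 0.0430), and it was -1.31 under quantile normalization. The call held under 16 of 20 alternatives, the adjusted p running from 0.00326 to 0.170, and in 4 of 16 fits without 1 array.

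DNAJB4, a cochaperone of the HSP40 type, was the faintest of these probes. It lay between -2.86 and -2.02 in T and between -1.87 and -0.89 in A, with no overlap. The difference was -0.95 (standard error 0.18, adjusted p = 0.0157), and it held in all 16 fits without 1 array. With normexp background correction, which pulls faint spots together, the difference was -0.11 and was not called (adjusted p = 0.517, the highest of the 20 alternatives).

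Several other chaperone genes had negative differences without passing. The largest was that of DNAJB9, an HSP40 protein of the endoplasmic reticulum, at -1.12 (adjusted p = 0.0816). HSPH1, the HSP110 partner of HSP70, had a mean of 1.12 ± 0.27 (SD, n = 9) in T and 1.75 ± 0.35 (SD, n = 7) in A (difference -0.63, adjusted p = 0.0645), and quantile and loess normalization brought it past the threshold. The cytosolic HSP90 genes HSP90AA1 and HSP90AB1 differed by -0.53 and -0.54 (adjusted p = 0.250 and 0.117). For HSP90AA1 early arousal 04-10 stood alone at 2.97, while the other 6 A arrays lay between 1.07 and 1.68. The HSP90 cochaperone CHORDC1 differed by -0.67 (adjusted p = 0.126). CHORDC1 averaged 0.64 ± 0.26 (SD, n = 4) in early and -0.21 ± 0.35 (SD, n = 3) in late arousal, beside -0.65 and -0.19 in early and late torpor. The stages were not tested apart. Of the 23 differences 8 were positive, the largest being 0.73 for HSPE1, which did not pass (adjusted p = 0.0874).

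Genes that respond to signals and stress held the largest called rise and the largest called fall among genes with a symbol. Of the 26 measured, 1 rose, 2 fell and 23 did not pass, and the median difference was -0.01. The rise made up 3.85% and the falls 7.69%, beside 4.97% and 0.828% of the genes with a symbol. ID2, a helix-loop-helix protein that blocks DNA binding by its partners, was between 2.71 and 3.90 in T (median 3.21) and between 1.56 and 2.80 in A (median 1.66). Late arousal 04-31, at 2.80, was the A array that entered the T range. The late arousal array on the A2 filter, outside the comparison, lay at 3.30, above all A arrays of the A1 set. The rise was 1.32 (standard error 0.21, adjusted p = 0.00918), a 2.49-fold difference, held in all 16 fits without 1 array and in 17 of 20 alternatives. Loess normalization was among those that did not call it, with a difference of 1.01.

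TP53INP1, a stress protein induced by p53 that acts in autophagy, was between 2.31 and 3.89 in T (median 3.07) and between 3.81 and 5.44 in A (median 4.22). Early torpor 04-15, at 3.89, was the T array above the lowest A array. It fell by 1.43 in T relative to A (standard error 0.27, adjusted p = 0.0157), which is 2.70-fold, and the difference was -1.80 under quantile, -1.81 under loess and -1.67 under equal spread. It was called in 19 of 20 alternatives and in every fit without 1 array. IFRD1, a transcriptional coregulator, lay between -1.39 and -0.72 in T and spread widely in A, from -0.95 in late arousal 04-72 to 1.43 in early arousal 04-10. The difference was -1.15 (adjusted p = 0.0339), called in 7 of 16 fits without 1 array.

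SMAD5, which carries signals of bone morphogenetic proteins to the nucleus, had means of -1.24 ± 0.40 (SD, n = 9) in T and -0.58 ± 0.36 (SD, n = 7) in A, and the difference of -0.67 did not pass (adjusted p = 0.0874). Late torpor 04-49 stood apart at -0.29, above all A arrays but early arousal 04-43. THRA, the thyroid hormone receptor alpha, differed by 0.34 (adjusted p = 0.296).

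**Figure D4:**
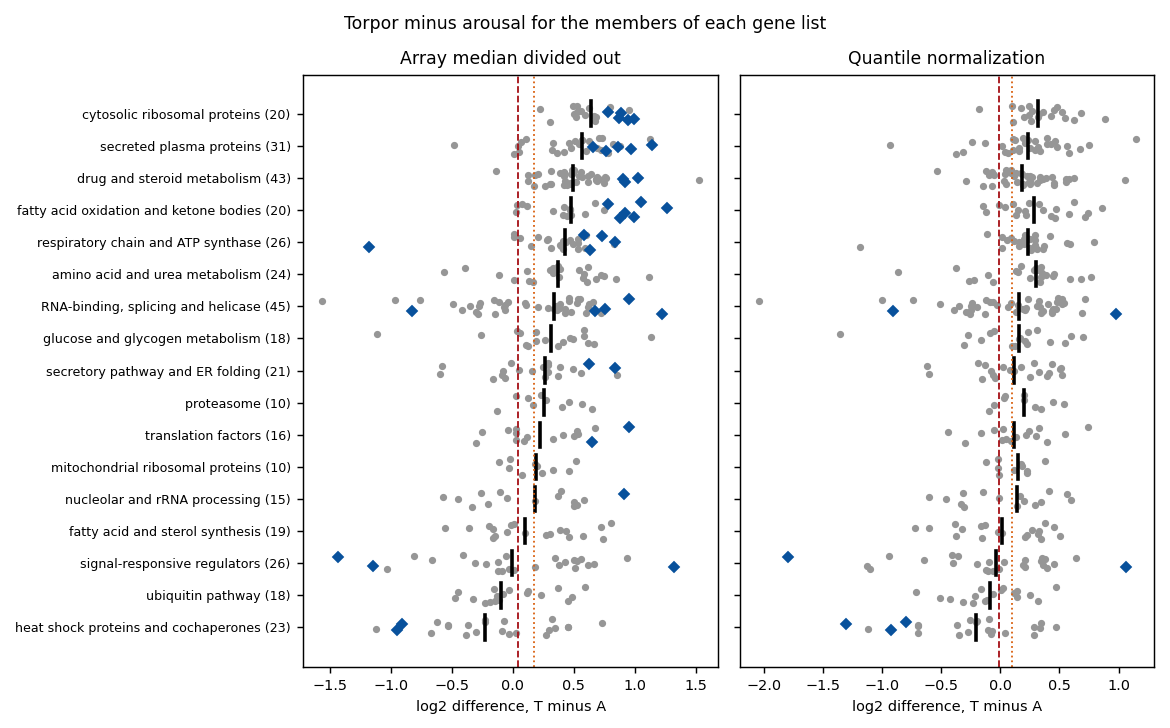
Each point is 1 gene, placed on the x axis by its log2 difference T minus A and on the y axis by list, with the number of members in brackets. Diamonds are called genes, black bars list medians and the vertical lines the medians of all probes (red, dashed) and of the genes with a symbol (orange, dotted), 0.05 and 0.17 with the array median divided out (left) and -0.01 and 0.10 after quantile normalization (right). By their medians, ribosomal proteins lie farthest to the right (0.64 and 0.32) and heat shock proteins farthest to the left (-0.23 and -0.20) in both panels.

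Fatty acid oxidation supplies most of the fuel of a fasting hibernator, and its acetyl-CoA feeds the synthesis of ketone bodies in liver. All 20 genes measured had a positive difference, 6 rose and 14 did not pass, with a median of 0.47. The share that rose was 30%, beside 4.97% of the genes with a symbol. After quantile normalization the median was 0.28, 17 of 20 were positive and none was called. Their median level, 2.58, lay in bin 9 of the probes, in which the median difference was 0.25 and 80.7% of all probes were higher in T.

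ACOX2, a peroxisomal oxidase of branched acyl chains and bile acid precursors, was between 1.76 and 2.63 in T (median 1.96) and between 0.86 and 1.64 in A (median 0.95). The states did not overlap, and the rise was 0.92 (standard error 0.16, adjusted p = 0.0105). Under quantile normalization 0.74 remained, without a call.

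EHHADH, the peroxisomal bifunctional enzyme, had the second largest called rise of any gene with a symbol, from a mean of 4.00 ± 0.77 (SD, n = 7) in A to 5.26 ± 0.52 (SD, n = 9) in T. Early arousal 04-84 and late arousal 04-31, at 5.11 and 4.85, lay within the T range, and the difference of 1.26 (adjusted p = 0.0336) was called in 8 of 16 fits without 1 array. SLC27A2, which activates very long fatty acids, rose by 1.05 (adjusted p = 0.0207). The mitochondrial enzymes ACADL and ACAA2, which open and close a round of beta-oxidation, rose by 1.0 and 0.88 (adjusted p = 0.0210 and 0.0228), while HADHB, a subunit of the trifunctional protein, differed by 0.11 (adjusted p = 0.803). Without early arousal 04-84 and 04-43, no gene of this list was called.

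Neither fatty acid and sterol synthesis nor glucose and glycogen metabolism yielded a call. Of 19 fatty acid and sterol synthesis genes 11 had positive differences, with a median of 0.10, and the extremes were -0.55 for the sterol sensor partner INSIG1 (adjusted p = 0.0913) and 0.81 for the lipogenic regulator THRSP (adjusted p = 0.167). Of 18 genes of glucose and glycogen metabolism 16 were positive, with a median of 0.31. The largest was PCK1, which controls gluconeogenesis, at 1.13 (adjusted p = 0.149), and the lowest was PPP1R3C, which targets a phosphatase to glycogen, at -1.12 (adjusted p = 0.119). The median level of these 18 genes, 1.81, lay in bin 9, where 80.7% of all probes were higher in T and the median difference was 0.25. After quantile normalization 12 of the 18 were positive and the median was 0.16.

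The respiratory chain list held 4 rises and 1 fall among 26 genes, with 25 differences positive and a median of 0.42. Rises made up 15.4% and the fall 3.85% of the list, beside 4.97% and 0.828% of the genes with a symbol. The list's median level, 1.79, lay in bin 9, where 80.7% of all probes were higher in T. After quantile normalization none was called, 24 were positive and the median was 0.23. NNT, a proton-driven enzyme of the inner mitochondrial membrane that makes NADPH, was between 3.04 and 3.75 in T (median 3.42) and between 2.28 and 2.89 in A (median 2.72). The states did not overlap, and the rise was 0.73 (standard error 0.14, adjusted p = 0.0182), called without each array in turn and under 12 of 20 alternatives. ATP5A1, the alpha subunit of ATP synthase, rose by 0.63 (adjusted p = 0.0397), NDUFA4 by 0.83 and the succinate dehydrogenase subunit SDHA by 0.58 (adjusted p = 0.0397 and 0.0419).

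COQ10B, which binds coenzyme Q and is needed for its function in respiration, was the member that fell. It lay between -3.21 and -0.59 in T and between -0.52 and 0.54 in A, so the states came close without overlapping. Early torpor 2000-43, at -3.21, was far below the other 8 T arrays (-1.36 to -0.59). The difference was -1.18 (standard error 0.29, adjusted p = 0.0423), it was called in 5 of 16 fits without 1 array, and its size ran from -0.50 to -1.20 over the alternatives.

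Cytosolic ribosomal proteins stood highest of all lists. All 20 differences were positive, 5 rose and 15 did not pass, and the median was 0.64. The share that rose was 25%, beside 4.97% of the genes with a symbol. Their median level, 3.01, lay in bin 10, where 91.5% of all probes were higher in T and the median difference was 0.43. Quantile normalization left 19 positive, a median of 0.32 and no call, and loess a median of 0.29. RPL12, of the large subunit, was between 0.68 and 2.14 in T (median 1.51) and between -0.07 and 0.93 in A (median 0.58). Late torpor 04-49, at 0.68, was the T array within the A range, and the rise was 0.99 (standard error 0.20, adjusted p = 0.0205). RPL10A, RPL3 and RPL30 rose by 0.94, 0.88 and 0.78.

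Translation factors gave 2 rises among 16 (12.5%, beside 4.97% of the genes with a symbol), with a median of 0.22 beside 0.17. Their median level, 1.61, lay in bin 9, where the median difference was 0.25, and 13 of the 16 differences were positive. In that bin 80.7% of all probes were higher in T. Under quantile normalization the list's median was 0.11, beside 0.10 over the genes with a symbol. BTF3, part of the complex that binds new polypeptides at the ribosome, showed no overlap (2.23 to 3.12 in T, 1.62 to 2.16 in A) and rose by 0.65 (adjusted p = 0.0315). PDCD4, an inhibitor of the helicase eIF4A, rose by 0.95 (adjusted p = 0.0333), with late arousal 04-31 at 2.83 far from the other 6 A arrays (0.88 to 1.69). Of 15 nucleolar genes RCL1, which acts in processing of ribosomal RNA, rose by 0.91 (standard error 0.17, adjusted p = 0.0158) and 14 did not pass. The share that rose was 6.67%, close to the 4.97% of the genes with a symbol, and the median was 0.18 beside 0.17. Under quantile, loess and equal spread normalization neither list held a call, and under quantile BTF3 had 0.40 (adjusted p = 0.359) and RCL1 0.57 (adjusted p = 0.216). None of the 10 mitochondrial ribosomal protein genes passed, and their median was 0.19.

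Plasma proteins and drug-metabolizing enzymes are the bulk products of hepatocytes and were among the brightest probes, with median levels of 3.65 and 3.87. Both medians lay in bin 10, where 91.5% of all probes were higher in T and the median difference was 0.43, so the shares of positive differences in these lists were close to that of bright probes at large. Of 31 plasma protein genes 5 rose (16.1%, beside 4.97% of the genes with a symbol), 30 differences were positive and the median was 0.57, which was 0.23 under quantile normalization with no call. FN1, which encodes fibronectin, was between 4.72 and 5.89 in T (median 5.36) and between 3.64 and 4.71 in A (median 4.09). The lowest T array and the highest A array nearly touched, and the rise was 1.14 (standard error 0.20, adjusted p = 0.0105), a 2.21-fold difference. APOB, the core protein of lipoproteins, varied little in T, with a mean of 5.22 ± 0.13 (SD, n = 9), and had 4.45 ± 0.37 (SD, n = 7) in A (difference 0.77, adjusted p = 0.0185). SERPINF1, which encodes a secreted serpin, differed by 1.12 without passing (adjusted p = 0.0851). Complement C3, the carboxypeptidase gene CPB2 and the protease inhibitor gene CST3 rose by 0.97, 0.86 and 0.65, while A2M, which encodes alpha-2-macroglobulin, differed by 0.01 (adjusted p = 0.989).

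Of 43 genes of drug and steroid metabolism 3 rose (6.98%, close to the 4.97% of the genes with a symbol), 42 differences were positive and the median was 0.49, or 0.18 under quantile normalization with no call. CYP2D6 was between 3.92 and 4.80 in T (median 4.20) and between 2.53 and 3.73 in A (median 3.46). No A array reached the lowest T array, and the rise was 0.92 (standard error 0.18, adjusted p = 0.0165). The glutathione transferase GSTA3 and the monooxygenase FMO4 rose by 1.03 and 0.90 (adjusted p = 0.0132 and 0.0397). The largest difference of the list, 1.53 for the fatty acid hydroxylase CYP4A11, did not pass (adjusted p = 0.0700). Amino acid and urea metabolism gave no call among 24 genes, 21 of them with positive differences, and its median was 0.37 and 0.30 under quantile normalization. Its median level, 1.92, lay in bin 9, where 80.7% of all probes were higher in T, and quantile normalization left 18 positive. The hepatocyte markers themselves had a median difference of 0.40, which was 0.07 under quantile and -0.06 under loess normalization, and their summed ratio ranged from 510 to 1296 over T and from 436 to 719 over A. The part of cell composition in these rises was not tested.

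In the secretory pathway 2 of 21 genes rose (9.52%, beside 4.97% of the genes with a symbol), TMED10, a cargo receptor of early secretory vesicles, by 0.62 and SPCS1, a subunit of signal peptidase, by 0.84 (adjusted p = 0.0429 and 0.0483). Both were close to the threshold and were called in 3 and 2 of the 16 fits without 1 array. Neither was called under quantile (adjusted p = 0.297 and 0.321), loess or equal spread normalization. DERL2, which helps move misfolded proteins out of the endoplasmic reticulum, differed by -0.60 (adjusted p = 0.142). None of 10 proteasome genes and none of 18 ubiquitin pathway genes passed, with medians of 0.25 and -0.10.

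Several of the largest rises belonged to none of the lists. ALDH2, the mitochondrial enzyme that clears acetaldehyde, was between 3.23 and 4.58 in T (median 4.18) and between 2.15 and 3.41 in A (median 2.93). Late torpor 04-49 at 3.23 and late arousal 2000-22 at 3.41 were the arrays that crossed, and the rise was 1.24 (standard error 0.21, adjusted p = 0.0105). MT1E, a metallothionein that binds zinc and copper, rose by 1.13 (adjusted p = 0.0296). CXCL12, a chemokine that holds blood-forming cells in place, rose by 1.06 (adjusted p = 0.0132). TM6SF1, which encodes a membrane protein, and UMPS, which makes the pyrimidine nucleotide UMP, rose by 1.11 and 1.02 (adjusted p = 0.0207 and 0.0397). None of these 5 was called under quantile or loess normalization. The quantile differences were 0.91 for ALDH2, 0.69 for MT1E, 0.81 each for CXCL12 and TM6SF1 and 0.89 for UMPS, and UMPS was called in 5 of 16 fits without 1 array.

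PSENEN, a subunit of the gamma-secretase protease, had a level near the array median, the lowest of the 12 largest rises. It was between -0.32 and 0.45 in T (median 0.04) and between -1.47 and -0.11 in A (median -1.10). Early arousal 04-10 and late arousal 04-72, at -0.11 and -0.45, were the highest of A, and the first of them lay within T. The late arousal array on the A2 filter, outside the comparison, lay at 0.71, above all T arrays. The rise of 1.0 (standard error 0.19, adjusted p = 0.0157) was 1.01 under quantile, 1.03 under loess and 1.03 under equal spread. It was called under 16 of 20 alternatives, over which the difference ran from 0.55 to 1.03 and the adjusted p reached 0.123.

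Among the falls outside the lists, MTUS1, a microtubule-associated protein, was called in most settings. It was between -0.58 and 0.40 in T (median -0.25) and between 0.27 and 1.11 in A (median 0.55). Late torpor 04-38, at 0.40, was the T array that reached A, and the difference was -0.84 (standard error 0.16, adjusted p = 0.0165), called in every fit without 1 array and under 18 of 20 alternatives. C8orf4, CCDC117, the glycosyltransferase gene GCNT2 and the kinase gene STK17A fell by 0.86, 0.76, 0.68 and 0.56, with adjusted p between 0.0385 and 0.0405, and were called in 2 to 6 of the 16 fits without 1 array.

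**Figure D5:**
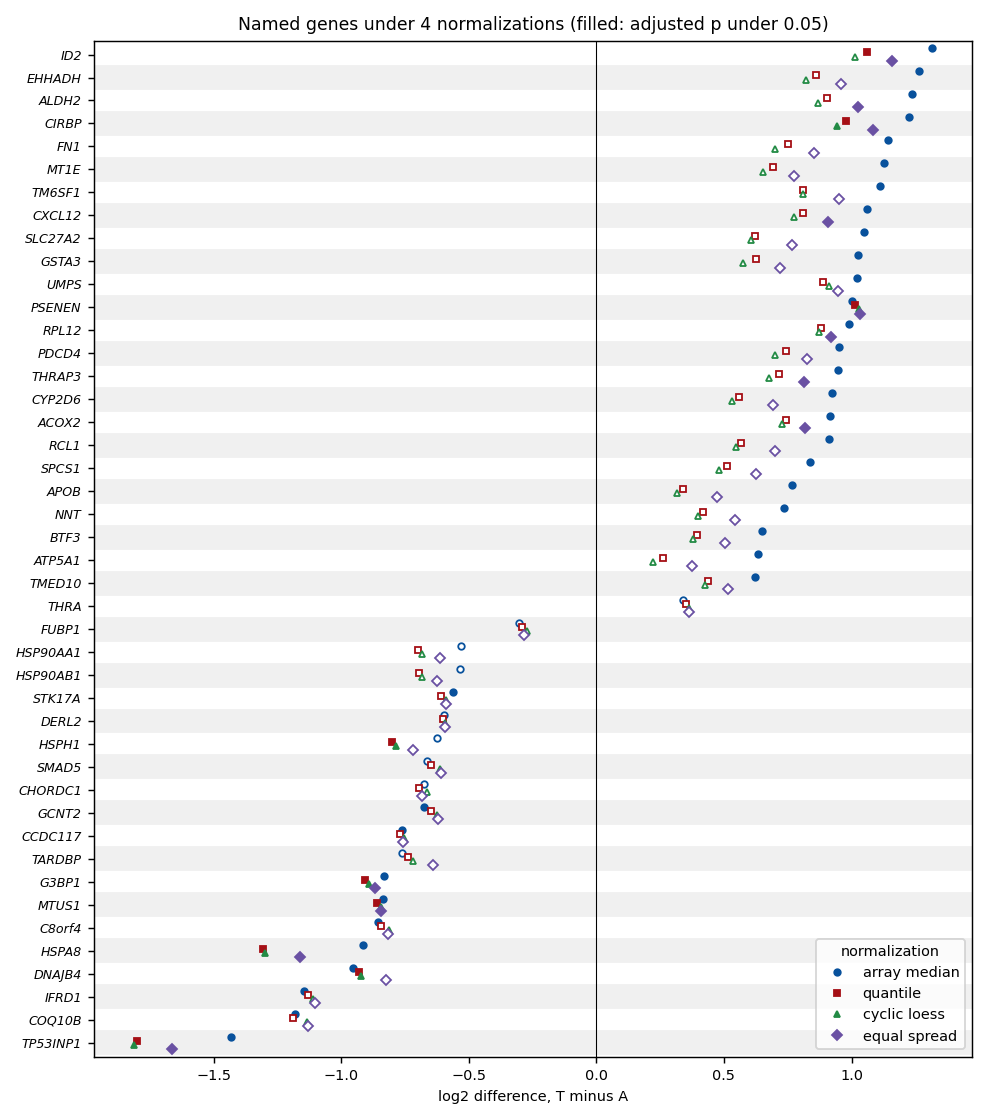
Each row is a named gene, placed on the x axis by its log2 difference T minus A under the array median, quantile, cyclic loess and equal spread normalizations; filled symbols passed at an adjusted p under 0.05. All genes keep their side of 0, the rises of bright genes such as APOB (0.77 to 0.34 under quantile) shrink toward it, and HSPA8 and TP53INP1 move away from it.

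Probes without a symbol made up 47 of the 124 calls, 45 higher in T and 2 lower. The 47 were 0.568% of the probes tested without a symbol, beside 5.79% of the genes with a symbol. The study had chosen those genes on the same arrays. The largest called rise of the comparison was at probe gene2585, with 2.83 to 4.58 in T and 1.92 to 2.83 in A (difference 1.45, adjusted p = 0.00918). Probe gene7675 rose by 1.39 (adjusted p = 0.00918) and was also called without early arousal 04-84 and 04-43. The falls were at gene7971, by 0.86 (adjusted p = 0.0205), and gene9506, by 0.80 (adjusted p = 0.0251).

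Over the 39 called genes and probes named here, the difference had the same sign in animals of identifier prefix 04 for all 39. In the other animals, a mean of 2 against 1 array, it did for 38, the exception being GCNT2 with 0.03. Both sets of animals were among the 16 on which the 39 were called, so these counts are not independent evidence. The late arousal array on the A2 filter, which differs from all others here in filter set, lay on the A side of the midpoint between the state means for 55 of the 124 called probes. It was on that side for 9 of the 13 falls and for 46 of the 111 rises. Among genes described above, it was on the A side for CIRBP, TP53INP1, HSPA8, MTUS1 and G3BP1. For PSENEN it lay above all T arrays, and for ID2 it lay within the T range. How much of this belongs to the filter was not tested.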

How the data were processed

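Liver RNA of 24 AGS was amplified, labelled with 33P and hybridized in 1 batch to nylon membranes of 9600 cDNA probes, 1 animal per membrane, per the labels. The authors scanned the membranes and quantified spots in ImaGene 6.1.0. The deposited files give signal and background intensity per spot and a ratio of the background-subtracted signal to the array's median. That ratio was recomputed here from the deposited median intensities, and it matched the deposited ratio within 1e-06 at all but 2297 of 230400 spots, where the authors' table holds 0.002. Spots at or below 0 (382 of 153600 on the 16 arrays used) were left missing, and log2 was taken.

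Groups came from the sample labels. T (n = 9) and A (n = 7) were compared in limma 3.58.1 (R 4.3.3, lmFit and eBayes) over 9598 probes, 2 being left out, with Benjamini-Hochberg adjustment over all 9598 and calls at an adjusted p under 0.05. Median signals were compared by an exact permutation test in scipy 1.17.1. The number of arrays limits the precision, and the p-values measure the spread between separate animals. The fit was also run on simulated arrays with noise drawn independently for each probe. Those arrays did not differ in range by state, so they cannot show how such a difference affects the calls. The study's table of 1329 symbols was paired with probes by its state means within 1e-04 (largest distance 8.11e-06, next probe at 0.00577 or more). Of these symbols, 992 were found in the RefSeq annotation of the species. No probe sequences or genome positions were used here.

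Named genes were the 12 largest called rises and falls with a symbol (11 falls passed), the 2 called members with the smallest adjusted p per direction in each list, 12 genes the study's text names for torpor against arousal, and the 2 largest called rises and falls without a symbol. Some called members of the lists are not reported here, though the counts include them. Other list members are named as called, or as the largest difference of a list, after their values were seen. Members, lists and rule were chosen with earlier results of these data known. Alternatives covered background, normalization, floors, dim and empty spots, identifier prefix, membrane number, stages, the arrays fitted, the variance model, the methods' test and leaving out each array. Of the 20 alternatives, equal spread, animals of prefix 04 alone and leaving out the 2 narrowest arrays were chosen after seeing the data.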

Additional observations from a re-analysis of the deposited data

Results flagged for a closer look

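Within T or A, 1 array stood far from the others in 7 of the 100 sets of values checked, where chance gives about 1 in 20. COQ10B was at -3.21 in early torpor 2000-43, with the other 8 T arrays between -1.36 and -0.59. Late arousal 04-31 was high for SPCS1, at 3.80 against 2.52 to 2.91 in the other 6 A arrays, and for PDCD4, at 2.83 against 0.88 to 1.69. Late torpor 04-49 was high for SMAD5, at -0.29 against -1.77 to -1.10 in the other 8 T arrays. Late torpor 04-36 was high for ACOX2, at 2.63 against 1.76 to 2.17, and low for DERL2, at -1.26 against -0.49 to 0.13. HSP90AA1 was at 2.97 in early arousal 04-10, with the other 6 A arrays between 1.07 and 1.68.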

How the results depend on the processing

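The number of called probes, 124 in the design as fixed, was 55 with normexp background correction, 18 with quantile, 16 with cyclic loess and 26 with equal spread normalization, 81 on the deposited ratio, 214 on mean pixel values, 76 with 17 winter arrays, 45 with 24 arrays in 3 states, 601 by the methods' test on 24 arrays, 26 in animals of prefix 04 alone and 4 without the 2 narrowest arrays. Fewer samples enter the last 2; the cause of the other shifts was not tested. By direction, rises and falls were 42 and 13 with normexp, 9 and 9 with quantile and 7 and 9 with loess. In the other 9 alternatives the number stayed within 1.5 times of 124. It ranged from 47 to 200 without single arrays. The difference in median signal stayed negative and past the threshold in every setting tried, from -25.0 to -17.1 without single arrays. None of the 48 named genes and probes changed sign under any setting, and 20 of the 39 called ones passed without each array in turn. The 9 named genes that were not called all passed by the methods' test on 24 arrays. That test adds the summer animals and the A2 filters, and the study chose its genes by it on these arrays. Quantile, loess and equal spread normalization took 29, 31 and 25 of the 39 below the threshold. Signal over background limits the faint probes. No paired analysis was possible because replicate numbers were given here in accession order and pair no animals.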
